A study of Mus musculus with 9 samples.

Results

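The 33 genes described here encode the proteins that form, limit, and dissolve blood clots. They were chosen by name from common knowledge of these systems. The rule for the choice used no measured value, but it was made with earlier results of these data known. All 33 are among the 24341 genes of the expression table. There are 15 clotting factor and fibrinogen genes, 3 genes of the kinin and contact system, 8 anticoagulant genes, 4 genes for plasminogen, its activators, and the urokinase receptor, and 3 genes for inhibitors or modulators of fibrinolysis. Their mRNA was measured in bulk liver from 9 C57BL/6 mice with a WT genotype. Of these, 3 mice had received FGK45, an agonist antibody to the immune receptor CD40 (anti-CD40 mice 2, 5, and 9). The sample records of the other 6 name PBS as their treatment (control mice 3, 4, 7, 8, 11, and 12). All livers were taken 48 hours after treatment, so each value is 1 mouse at 1 time. The study used sex-matched mice of 8 to 12 weeks unless it said otherwise, and the labels give neither age nor sex for these 9. The study left out anti-CD40 mice whose blood B cells had not dropped, which applies to the treated group alone.

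Most clotting factors are made by hepatocytes and secreted into plasma as inactive precursors. On injury, tissue factor starts a cascade of proteases that ends in thrombin, which cuts fibrinogen into fibrin, and factor XIII then crosslinks the fibrin. Antithrombin, protein C, protein S, and tissue factor pathway inhibitor limit the cascade, whereas plasmin, made from plasminogen by its activators, dissolves the clot. Fibrinogen is a classical acute phase protein of the liver.

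Libraries were made by a 3′ method that reads each transcript near its end, and the deposited values are FPKM, in which fragments are divided by transcript length and by the mapped total of the library. Because a length is divided out that 3′ reads do not depend on, the FPKM of different genes were not ranked against each other, and each comparison is of 1 gene, or of 1 ratio of genes, between mice. The groups were compared on log2(FPKM + 0.1) with limma, which fits a linear model per gene and moderates its variance with that of other genes. A gene was called when its p, adjusted over the 13807 genes whose FPKM averaged at least 0.1, was under 0.05. Single genes also had an exact permutation test, 2-sided, in which the 9 mice can be dealt into 3 and 6 in 84 ways, so that no p can be below 0.0238. Of all genes tested, limma called 23.5% higher and 21.7% lower after anti-CD40. In 22.7% every anti-CD40 mouse was above every control mouse, and in 19.6% every one was below. These are the backgrounds against which counts of coagulation genes stand.

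The livers differed in cell markers, and these values stand beside each result below. The summed FPKM of 7 hepatocyte markers was 14777 to 18694 after anti-CD40 and 37414 to 77348 in control mice, with 6 of the 7 called lower and Apob higher. Marker sums rose for neutrophils (5 of 5 markers called higher, 4203 to 5184 against 17.9 to 152) and monocytes (5 of 6, 582 to 703 against 192 to 256), and all 6 Kupffer cell markers fell (39.0 to 50.7 against 285 to 456). Of the 8 sinusoidal endothelial markers, 2 were higher and 4 lower (85.2 to 87.3 against 94.7 to 118), whereas 1 of 7 pan-endothelial markers was higher and 1 lower (42.0 to 46.6 against 34.7 to 41.9). Platelet and megakaryocyte markers overlapped in sum (40.7 to 52.1 against 30.4 to 68.3, with 3 of 9 tested called higher), as did erythroid markers (none called) and stellate cell markers (2 higher, 2 lower). The libraries of 2 mice stood apart. Anti-CD40 mouse 5 held pancreatic acinar transcripts (a marker sum of 873, against 27.5 to 190 in the other mice). Control mouse 4 had the highest erythroid sum (50532, against 4176 to 14320) and the highest neutrophil sum of the controls. In bulk liver, fewer cells of a type and less RNA per cell cannot be told apart. Saa1, Saa2, and Saa3 made up 25.4% to 25.9% of the summed FPKM after anti-CD40 and at most 0.380% in control mice, and FPKM are scaled to a total. Leaving these 3 genes out and rescaling each mouse moved the log2 fold change of the median gene by 0.34.

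Coagulation genes moved in both directions 2 days after anti-CD40. Of the 32 genes that could be tested, 11 rose, 12 fell, and 9 were not called, and Adamts13 lay below the filter. The rising share was above the background of 23.5% and the falling share above 21.7%, and these counts are a description of a list chosen with earlier results known. In 9 of these 32 genes all anti-CD40 mice were above all control mice, and in 9 all were below. Of all genes tested, 22.7% were above and 19.6% below in this way. The median log2 fold change of the 32 was -0.46, against 0.0056 for all genes tested. Clotting factor and fibrinogen genes split into 5 higher, 7 lower, and 3 not called, and anticoagulants into 2 higher, 3 lower, and 2 not called. None of the kinin genes rose and 2 of 3 fell, whereas all 3 genes for plasminogen activators and their receptor rose and plasminogen itself was not called. Of the 22 genes with a control mean of at least 10 FPKM, those that rose were Fga, Fgb, Fgg, Pros1, and Cpb2, and 11 fell. Of the 10 tested genes under 10 FPKM, Vwf alone fell, and F11, F13a1, Thbd, Plat, Plau, and Plaur rose. With Saa1, Saa2, and Saa3 left out and the mice rescaled, 12 of the 32 genes were higher, the same 11 and Tfpi, and 8 were lower, all from the same 12 (across all genes, the higher share of calls went from 52.0% to 77.4%).

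**Figure D1:**
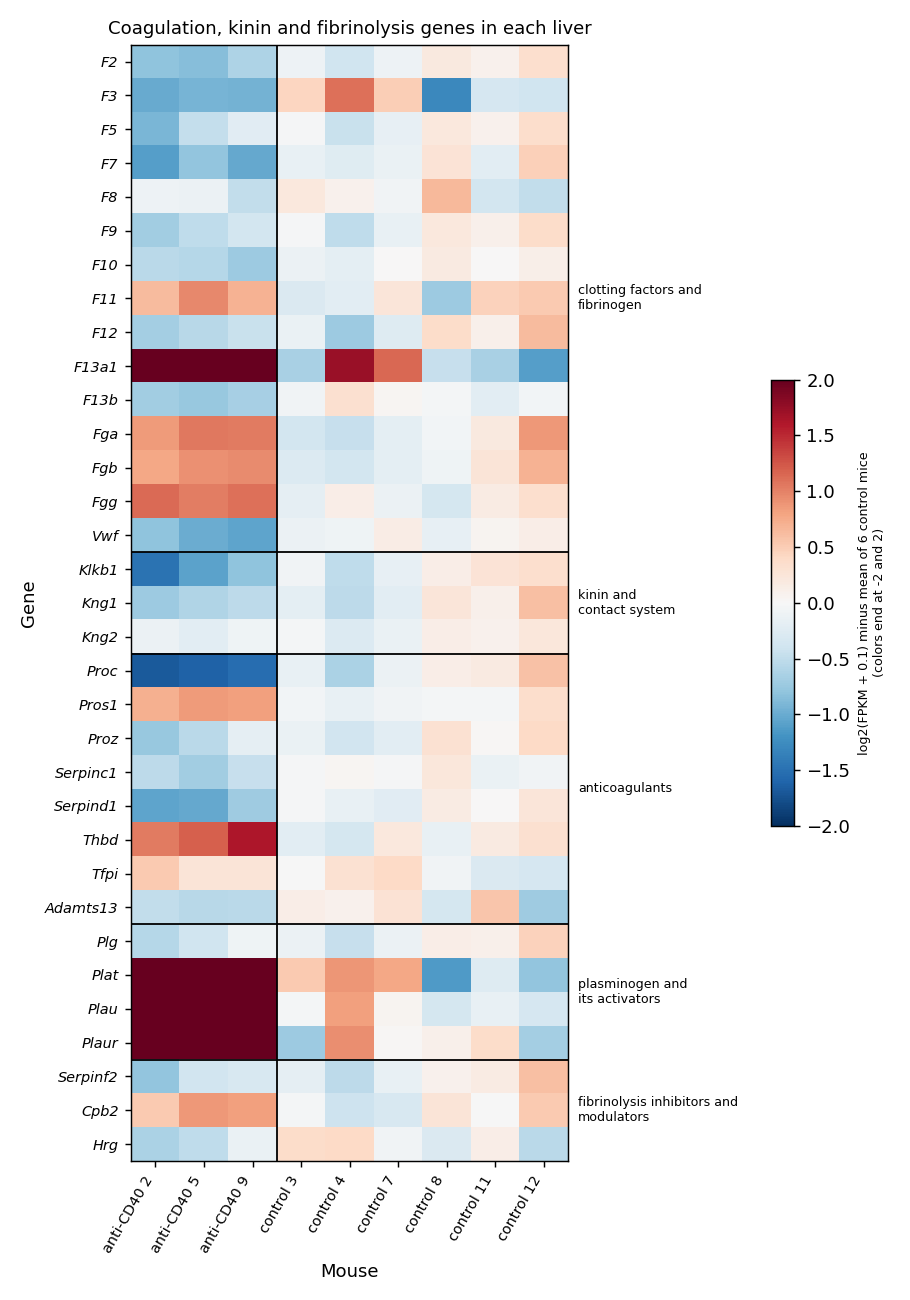
Each column is a mouse and each row a gene, colored by log2(FPKM + 0.1) minus the mean of the 6 control mice, with colors ending at -2 and 2 and black lines between roles. The 3 anti-CD40 columns were red for the fibrinogen genes, F11, F13a1, Pros1, Thbd, Plat, Plau, Plaur, and Cpb2, and blue for F2, F7, Klkb1, Proc, and Serpind1.

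**Figure D2:**
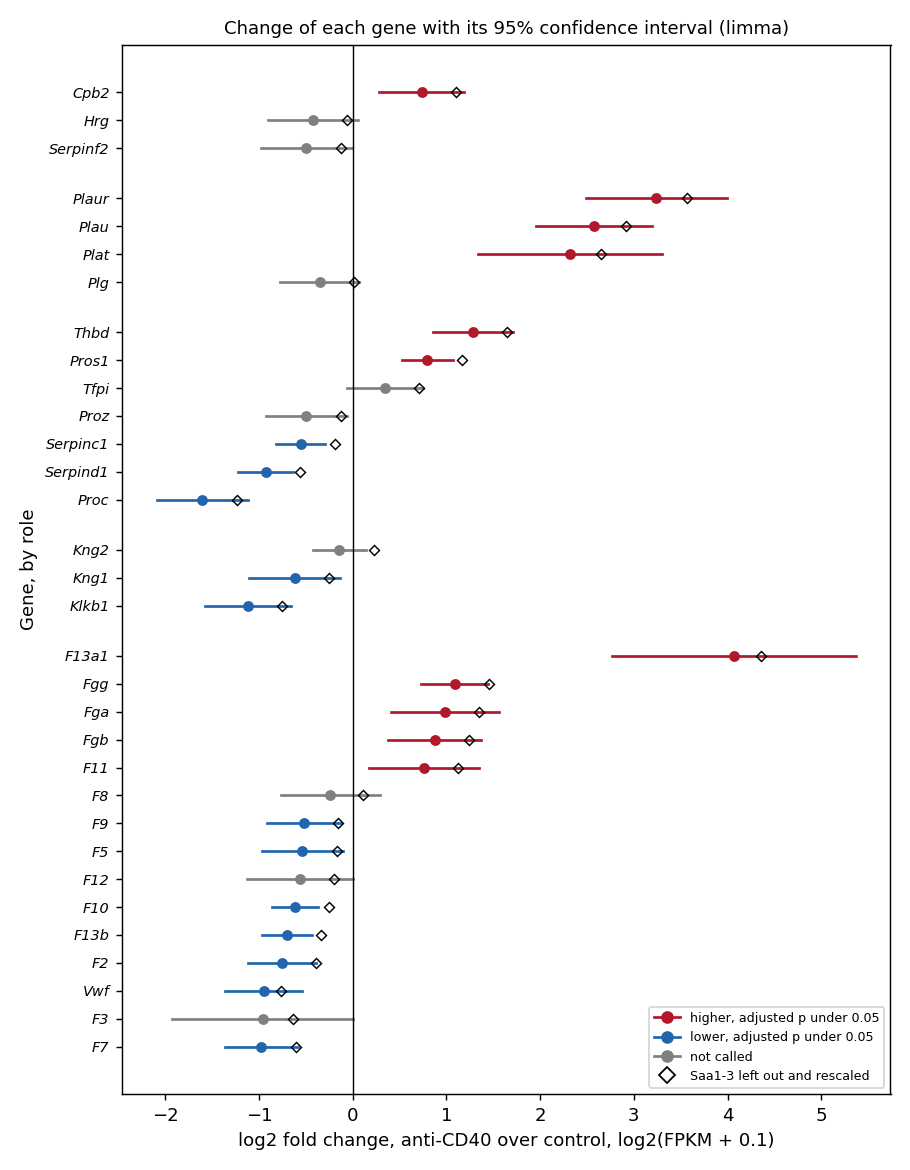
Points show the log2 fold change of each of 32 genes, anti-CD40 over control (3 against 6 mice), with bars for the 95% confidence interval, and open diamonds show the value with Saa1-3 left out and each mouse rescaled. The called genes ran from -1.60 (Proc) to 4.07 (F13a1), and the diamonds lie to the right of the points because rescaling moved the median of all genes by 0.34, which took F8, Kng2, and Plg, none of them called, to the other side of 0.

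The 3 fibrinogen genes rose together, by 1.83-fold to 2.13-fold on the fitted scale. They are neighbors on chromosome 3 of mm10, Fgg from 83007896 to 83015049, Fga from 83026153 to 83033617, and Fgb from 83042305 to 83049790, and encode the γ, α, and β chains of 1 protein. Fgg measured 5226, 4871, and 5122 FPKM in anti-CD40 mice 2, 5, and 9 and 2110, 2626, 2203, 1867, 2663, and 3023 FPKM in control mice 3, 4, 7, 8, 11, and 12. Every anti-CD40 mouse was therefore above every control mouse, with the lowest of them at 4871 and the highest control at 3023 FPKM. Fga measured 1686, 1943, and 1911 FPKM after anti-CD40 and 725, 676, 809, 901, 1071, and 1703 FPKM in control mice. Here control mouse 12 reached the anti-CD40 range and exceeded anti-CD40 mouse 2, so the groups overlapped. Fgb stood at 4733, 5179, and 5290 FPKM against 2278, 2130, 2409, 2586, 3281, and 4443 FPKM, with control mouse 12 again the highest control. The log2 fold change was 1.09 for Fgg (standard error 0.16, limma adjusted p = 3.44e-04, exact permutation p = 0.0238), 0.98 for Fga (0.26, limma adjusted p = 0.0105, exact permutation p = 0.0476), and 0.88 for Fgb (0.22, limma adjusted p = 0.00866, exact permutation p = 0.0238). The ratios among the 3 chains overlapped between groups: the Fga to Fgg ratio within a mouse was 0.323 to 0.399 after anti-CD40 and 0.257 to 0.563 in control mice, and the Fgb to Fgg ratio 0.906 to 1.06 and 0.811 to 1.47. Fgg kept its call under every alternative tried, whereas Fgb lost it with no filter on low genes (adjusted p = 0.0618) and Fga when anti-CD40 mouse 5 and control mouse 4 were both left out (adjusted p = 0.0562) or at a threshold of 0.01.

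Because the 3 genes moved together, their promoter windows are shown, 250 bases before to 50 bases after a RefSeq start site on GRCm38.p6, the assembly of mm10. Capitals mark matches to 4 short letter patterns searched on both strands: the STAT pattern TTCNNNGAA, the IL-6 response element letters CTGGGAA, the C/EBP pattern TTGCNNAAT, and the FOXA letters TGTTTAC.
Fga promoter, chr3:83025903-83026202, plus strand: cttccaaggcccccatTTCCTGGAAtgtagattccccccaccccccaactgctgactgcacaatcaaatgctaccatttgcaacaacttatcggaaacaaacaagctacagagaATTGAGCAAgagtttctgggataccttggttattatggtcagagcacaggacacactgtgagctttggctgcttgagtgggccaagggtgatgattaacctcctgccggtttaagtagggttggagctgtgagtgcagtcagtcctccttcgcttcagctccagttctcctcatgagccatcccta
Fgb promoter, chr3:83049814-83050113, minus strand: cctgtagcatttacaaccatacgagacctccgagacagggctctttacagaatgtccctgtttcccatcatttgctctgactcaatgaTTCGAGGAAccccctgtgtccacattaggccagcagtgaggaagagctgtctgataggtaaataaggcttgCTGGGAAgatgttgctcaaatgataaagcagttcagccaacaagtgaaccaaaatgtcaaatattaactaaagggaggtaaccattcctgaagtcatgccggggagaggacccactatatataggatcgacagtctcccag
Fgg promoter, chr3:83007474-83007773, plus strand: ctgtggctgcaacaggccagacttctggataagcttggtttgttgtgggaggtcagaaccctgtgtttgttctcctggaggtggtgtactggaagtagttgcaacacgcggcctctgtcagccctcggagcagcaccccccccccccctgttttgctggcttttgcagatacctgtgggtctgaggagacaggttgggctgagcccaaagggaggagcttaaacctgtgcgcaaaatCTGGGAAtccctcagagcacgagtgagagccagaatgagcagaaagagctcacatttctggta
The Fga window held the STAT letters from -234 to -226 bases and, on the other strand, the C/EBP letters from -136 to -128. The Fgb window held the STAT letters from -162 to -154 and CTGGGAA from -91 to -85, and the Fgg window CTGGGAA from -13 to -7. None of these matches overlapped another. Of 32851 windows of the same length in the RefSeq table, 8.3% held the STAT letters, 11.1% CTGGGAA, 2.4% the C/EBP letters, and 3.65% the FOXA letters. The 26 of 33 genes with a window gave 4 genes with the STAT letters (F9, Fga, Fgb, and Pros1), 6 with CTGGGAA (Adamts13, F9, Fgb, Fgg, Kng2, and Tfpi), 2 with the C/EBP letters (F9 and Fga), and 3 with the FOXA letters (Adamts13, F11, and Klkb1). The holders of each pattern thus included genes that rose and genes that did not, and F9, which fell, held 3 of the 4 patterns. A match is a run of letters, not a site shown to be bound. The start site of the Fga window equals the start in the deposited table, whereas those of Fgb and Fgg lie 73 and 172 bases from it.

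**Figure D3:**
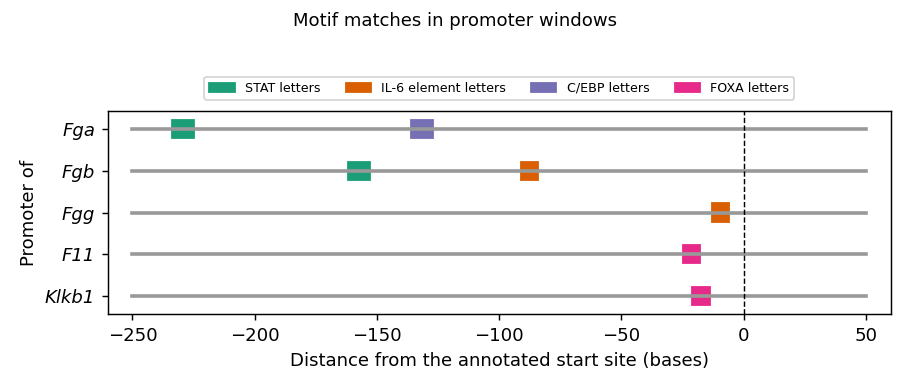
Gray lines are the promoter windows of 5 genes drawn around the RefSeq start site (dashed line), with distance from it in bases on the x axis, and colored boxes are letter matches on either strand. The fibrinogen genes Fga and Fgb held 2 matches each and Fgg 1, and F11 and Klkb1 each held the FOXA letters between -25 and -15 bases.

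Of the other liver-made clotting factors, F2, F7, F10, and F13b fell by 34.7% to 49.1% on the fitted scale. Prothrombin (F2), the precursor of thrombin, measured 1409, 1365, and 1606 FPKM after anti-CD40 and 2282, 1867, 2288, 2814, 2614, and 3093 FPKM in control mice, with no overlap between groups (log2 fold change -0.76, standard error 0.16, limma adjusted p = 0.00358). Factor VII (F7), which starts the cascade with tissue factor, measured 23.9, 29.7, and 25.2 FPKM against 46.4, 43.3, 46.9, 62.0, 44.7, and 71.5 FPKM, a fall to 0.509 of the control level on the fitted scale. Its log2 fold change of -0.98 (standard error 0.17, limma adjusted p = 0.00114) was called under every alternative tried. Factor X (F10), the protease that makes thrombin, ran from 140 to 158 FPKM after anti-CD40 and from 201 to 260 FPKM in control mice (log2 fold change -0.61, limma adjusted p = 0.00116). F13b, the carrier subunit of factor XIII, ran from 79.5 to 84.8 FPKM against 117 to 169 FPKM (log2 fold change -0.71, limma adjusted p = 8.28e-04). For F2, F7, F10, and F13b the highest anti-CD40 mouse was below the lowest control mouse, and each had an exact permutation p of 0.0238. Relative to F2 in the same mouse, Fgg was 3.19 to 3.71 after anti-CD40 and 0.664 to 1.41 in control mice, with no overlap between the groups. Under quantile normalization the falls of F2 (adjusted p = 0.0505), F10 (adjusted p = 0.192), and F13b (adjusted p = 0.0713) were not called. With Saa1, Saa2, and Saa3 left out, a rescaling that moved the median gene up by 0.34, all 4 falls were smaller. They stayed called, 3 of them near the threshold. The log2 fold changes were then -0.61 for F7 (adjusted p = 0.00651), -0.39 for F2 (adjusted p = 0.0393), -0.25 for F10 (adjusted p = 0.0422), and -0.34 for F13b (adjusted p = 0.0494). Less the median of all genes under that rescaling, they were -0.96 for F7, -0.74 for F2, -0.60 for F10, and -0.69 for F13b. Hepatocyte markers fell in sum beside these genes, but not all fell, with 6 called lower and Apob higher (means of 20.1 against 12.2 FPKM). The liver-made fibrinogen genes rose in the same mice. The part of hepatocytes in the result was not tested.

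The falls of factor V and factor IX were smaller and less stable. F5, the cofactor of factor X, measured 21.7, 29.4, and 34.8 FPKM after anti-CD40 and 29.9 to 52.0 FPKM in control mice (median 41.7), and F9, the factor absent in hemophilia B, measured 32.01, 36.37, and 40.01 FPKM against 36.4 to 66.5 FPKM (median 53.2). In both genes control mouse 4 was the lowest control and lay within the anti-CD40 range. The log2 fold change was -0.54 for F5 (limma adjusted p = 0.0439) and -0.52 for F9 (limma adjusted p = 0.0351). F5 was no longer called when anti-CD40 mouse 2 or 5 or control mouse 3, 7, 8, 11, or 12 was left out (adjusted p = 0.0513 to 0.212), and F9 when any anti-CD40 mouse or control mouse 3, 8, 11, or 12 was left out (adjusted p = 0.0522 to 0.141). Both calls were also lost with Saa1, Saa2, and Saa3 left out (F5 -0.17, adjusted p = 0.441, and F9 -0.16, adjusted p = 0.428), under quantile normalization (-0.31, adjusted p = 0.194, and -0.26, adjusted p = 0.187), and with no filter (adjusted p = 0.107 and 0.0838), and that of F5 with eBayes without a trend (adjusted p = 0.0563). The deposited position of F5 is shared with Selp and Gm16548, and the table does not show how reads there were divided. Not called were F12, which starts the contact pathway (log2 fold change -0.56, 95% confidence interval -1.13 to 0.0047), and F8, the cofactor of factor IX (-0.24, -0.77 to 0.30). Nor was F3, tissue factor, called: it stood at 0.621, 0.660, and 0.647 FPKM after anti-CD40 and at 1.85, 3.02, 1.93, 0.491, 1.04, and 0.996 FPKM in control mice. The control mice spread over a range that the 3 anti-CD40 mice did not, with control mouse 8 alone below them, and without that mouse F3 was called lower (log2 fold change -1.22, limma adjusted p = 0.0150), as it was with all 9 mice under quantile normalization (-1.36, limma adjusted p = 0.0174). F12 was called lower without control mouse 4 (log2 fold change -0.71, limma adjusted p = 0.0148). The sign for F8 turned with the rescaling that leaves out Saa1, Saa2, and Saa3 (log2 fold change 0.11).

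**Figure D4:**
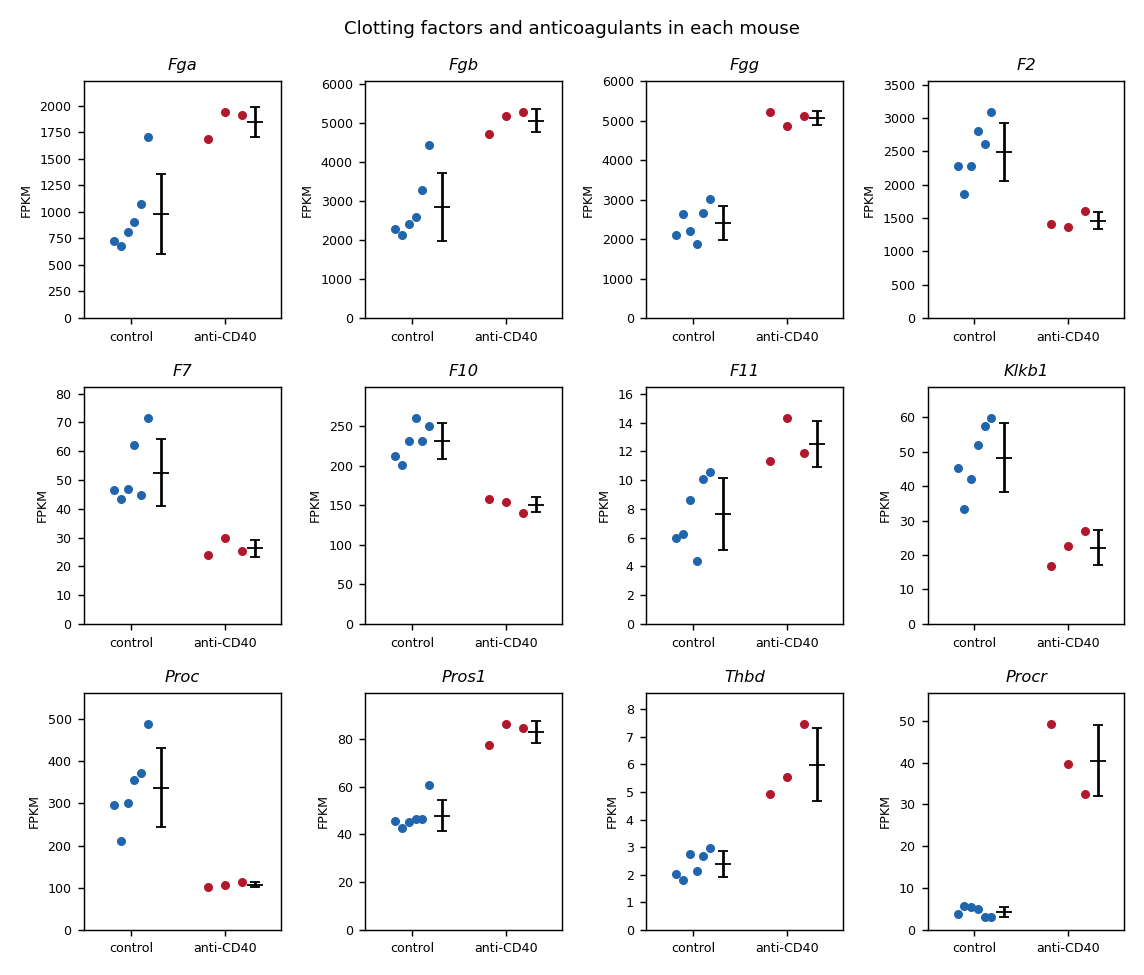
Each panel shows the FPKM of 1 gene from 0 upward, with 1 point per mouse (blue, 6 control mice; red, 3 anti-CD40 mice) and the mean ± SD of each group beside it. Fgg, Pros1, Thbd, Procr, and F11 had all anti-CD40 mice above all control mice, F2, F7, F10, Klkb1, and Proc had them below, and Fga overlapped through control mouse 12 at 1703 FPKM.

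Factor XI and plasma prekallikrein are encoded by neighboring, related genes that moved in opposite directions. F11, whose product activates factor IX, lies on chromosome 8 from 45241168 to 45262031, and Klkb1, whose product frees bradykinin from kininogen, lies 7.42 kb away from 45269451 to 45294835. F11 measured 11.4, 14.3, and 11.9 FPKM after anti-CD40 and 5.98, 6.27, 8.64, 4.37, 10.1, and 10.5 FPKM in control mice. Klkb1 measured 16.9, 22.5, and 27.1 FPKM against 45.2, 33.2, 42.2, 52.0, 57.4, and 59.8 FPKM. Neither gene's groups overlapped, although control mice 11 and 12 came close to the anti-CD40 mice for F11. The log2 fold change was 0.76 for F11 (standard error 0.26, limma adjusted p = 0.0367) and -1.12 for Klkb1 (standard error 0.21, limma adjusted p = 0.00133), with an exact permutation p of 0.0238 for each. The ratio of F11 to Klkb1 within a mouse, which a scaling factor applied to a mouse cannot move, was 0.673, 0.637, and 0.437 after anti-CD40 and 0.0840 to 0.205 in control mice. The rise of F11 rested on few mice: it was not called when any of the 3 anti-CD40 mice, control mouse 3, or control mouse 4 was left out (adjusted p = 0.0557 to 0.135), nor with no filter (adjusted p = 0.104). Klkb1 kept its call throughout. The windows of both genes are shown since the genes diverged while their start sites share a pattern.
F11 promoter, chr8:45261982-45262281, minus strand: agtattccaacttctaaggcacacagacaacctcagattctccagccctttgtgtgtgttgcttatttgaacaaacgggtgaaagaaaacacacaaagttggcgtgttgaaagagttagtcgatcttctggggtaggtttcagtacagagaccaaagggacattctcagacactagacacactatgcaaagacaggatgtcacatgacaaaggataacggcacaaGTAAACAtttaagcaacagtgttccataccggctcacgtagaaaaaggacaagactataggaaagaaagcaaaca
Klkb1 promoter, chr8:45294786-45295085, minus strand: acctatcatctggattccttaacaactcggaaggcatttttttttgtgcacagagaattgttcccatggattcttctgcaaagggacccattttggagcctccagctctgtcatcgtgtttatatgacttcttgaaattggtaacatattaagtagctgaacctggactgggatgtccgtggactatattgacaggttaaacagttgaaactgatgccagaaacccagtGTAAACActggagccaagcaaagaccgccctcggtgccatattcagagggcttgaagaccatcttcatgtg
The capitals are the FOXA letters on the other strand, from -25 to -19 bases in F11 and from -21 to -15 in Klkb1. The same letters at nearly the same distance were thus found in a gene that rose and in its neighbor that fell.

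The kininogens, the substrates of kallikrein, differed less. Kng1 measured 788, 858, and 905 FPKM after anti-CD40 and 902 to 1972 FPKM in control mice (median 1268), with control mouse 4 just below anti-CD40 mouse 9 (log2 fold change -0.62, limma adjusted p = 0.0414). Its call was lost without any of the 3 anti-CD40 mice, control mouse 8, or control mouse 11 (adjusted p = 0.0716 to 0.135), and also under quantile normalization (log2 fold change -0.096, adjusted p = 0.742), with Saa1, Saa2, and Saa3 left out (-0.25, adjusted p = 0.300), and with no filter (adjusted p = 0.114). Its neighbor Kng2 ran from 282 to 309 FPKM against 271 to 384 FPKM and was not called (log2 fold change -0.14, 95% confidence interval -0.42 to 0.14). The sign for Kng2 depended on scaling, with 0.32 under quantile normalization, where it was called higher (limma adjusted p = 0.0258), and 0.22 with Saa1, Saa2, and Saa3 left out. The ratio of Kng2 to Kng1 was 0.329 to 0.381 after anti-CD40 and 0.195 to 0.301 in control mice. The genes are paralogs, so reads that fit both could have been divided between them.

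F13a1 and Vwf, the remaining clotting genes, which hepatocytes are not known to make in quantity, moved in opposite directions. F13a1, the catalytic subunit of factor XIII that monocytes, macrophages, and megakaryocytes make, measured 4.47, 3.45, and 4.30 FPKM after anti-CD40. In control mice it was 0.0573, 0.716, 0.449, 0.0803, 0.0579, and 0.0151 FPKM, so mice 4 and 7 stood above the other 4. The log2 fold change was 4.07 (standard error 0.59, limma adjusted p = 2.82e-04), and because most control values lie below the added 0.1 its size ran from 2.07 to 5.05 over the alternatives. Its partner subunit F13b fell in the same livers. The monocyte marker sum was higher in all anti-CD40 mice. Control mice 4 and 7 had the highest neutrophil (152 and 82.0) and platelet (68.3 and 54.3) marker sums of the control mice. Their monocyte sums were also the highest (225.5 and 256), but control mouse 12, with the lowest F13a1, nearly equaled mouse 4 (225.3). The marker Fn1 alone measured 155 to 192 FPKM in control mice, most of each monocyte sum. It stood at 168 FPKM in mouse 4, 191 FPKM in mouse 7, and 192 FPKM in mouse 12. Of the other markers, Ly6c2 (1.71 and 2.51 FPKM) and Lyz2 (48.0 and 54.1 FPKM) were highest in control mice 4 and 7. Ccr2 and Chil3 were highest in control mouse 4, and Csf1r in control mouse 12 (12.4 FPKM). The part of monocytes, neutrophils, and platelets in the result was not tested. Vwf, made by endothelial cells and megakaryocytes, measured 0.0888, 0.0666, and 0.0596 FPKM after anti-CD40 and 0.206, 0.213, 0.268, 0.197, 0.245, and 0.263 FPKM in control mice. The steps between low FPKM values gave 17, 12, and 10 reads against 29 to 48 reads, so the fall did not rest on isolated reads. Vwf had a log2 fold change of -0.95 (standard error 0.18, limma adjusted p = 0.00188), which because of the added 0.1 understates a fall to 0.309 of the control mean and which ran from -1.57 to -0.20 over the alternatives. Beside it, the pan-endothelial marker sum was not lower (42.0 to 46.6 against 34.7 to 41.9), although its marker Tek was called lower, whereas the sinusoidal endothelial sum was lower without overlap (85.2 to 87.3 against 94.7 to 118), with 4 of 8 markers called lower and 2 higher. The part of endothelial cells in the result was not tested.

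Among the anticoagulants, protein C fell most and its cofactor protein S rose. Proc, on chromosome 18, measured 102, 107, and 114 FPKM after anti-CD40 and 296, 211, 300, 356, 372, and 489 FPKM in control mice, which left a gap between 114 and 211 FPKM. Its log2 fold change of -1.60 (standard error 0.22, limma adjusted p = 1.93e-04, exact permutation p = 0.0238) was the largest fall of the 32 genes tested on the log2(FPKM + 0.1) scale, whereas by the ratio of group means Vwf (0.309) fell slightly more than Proc (0.319). Pros1, on chromosome 16 from 62854334 to 62929340, measured 77.7, 86.4, and 84.5 FPKM against 45.8, 42.9, 45.3, 46.6, 46.5, and 60.8 FPKM, again without overlap. Pros1 had a log2 fold change of 0.80 (standard error 0.12, limma adjusted p = 4.12e-04). The ratio of Pros1 to Proc was 0.741 to 0.809 after anti-CD40 and 0.124 to 0.203 in control mice, a ratio of group means of 5.21. Thrombomodulin (Thbd), the endothelial receptor on which thrombin activates protein C, measured 4.94, 5.54, and 7.47 FPKM against 2.01, 1.82, 2.74, 2.12, 2.69, and 2.97 FPKM. It rose with a log2 fold change of 1.29 (standard error 0.19, limma adjusted p = 3.64e-04), so the receptor and its substrate moved in opposite directions. The calls of Proc, Pros1, and Thbd held under every alternative tried.

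Antithrombin and heparin cofactor II, serpins that inhibit thrombin, fell. Antithrombin (Serpinc1) measured 1224, 1091, and 1284 FPKM after anti-CD40 and 1599 to 2059 FPKM in control mice (median 1734), and heparin cofactor II (Serpind1) 88.2, 89.7, and 111 FPKM against 155 to 215 FPKM (median 182). All anti-CD40 mice were below all control mice for both genes. The log2 fold change was -0.56 for Serpinc1 (limma adjusted p = 0.00309) and -0.93 for Serpind1 (limma adjusted p = 2.64e-04). Serpinc1 was not called under quantile normalization (log2 fold change -0.094, adjusted p = 0.510) or with Saa1, Saa2, and Saa3 left out (-0.19, adjusted p = 0.175). The deposited position of Serpind1 is shared with Pi4ka and Snap29. Protein Z (Proz), a cofactor for the inhibition of factor X, lies 4.23 kb from F10 and had a log2 fold change of -0.49 (95% confidence interval -0.93 to -0.063, limma adjusted p = 0.0605). It was called lower without anti-CD40 mouse 9 (adjusted p = 0.0407) or control mouse 4 (adjusted p = 0.0257). Tfpi, the inhibitor of tissue factor, was not called (log2 fold change 0.35, 95% confidence interval -0.057 to 0.75), except with Saa1, Saa2, and Saa3 left out (0.71, adjusted p = 0.0124). Adamts13, the protease that trims von Willebrand factor, was too low to test, at 0.0223 to 0.0278 FPKM after anti-CD40 and from the floor of 0.01 to 0.163 FPKM in control mice.

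The activators of plasminogen rose, and plasminogen did not. Plat, tissue plasminogen activator, measured 3.76, 2.90, and 2.98 FPKM after anti-CD40 and 0.847, 1.11, 1.03, 0.1996, 0.450, and 0.283 FPKM in control mice. Plau, urokinase, measured 5.63, 3.07, and 3.64 FPKM against 0.563, 1.11, 0.609, 0.439, 0.519, and 0.441 FPKM, and Plaur, the receptor that holds urokinase at the cell surface, 4.70, 4.19, and 3.85 FPKM against 0.176, 0.773, 0.365, 0.394, 0.489, and 0.186 FPKM. In all 3 genes control mouse 4 was the highest control and still lay well below the lowest anti-CD40 mouse. The log2 fold changes were 2.32 for Plat (standard error 0.44, limma adjusted p = 0.00164), 2.58 for Plau (0.28, limma adjusted p = 4.38e-05), and 3.24 for Plaur (0.34, limma adjusted p = 3.42e-05), with an exact permutation p of 0.0238 for each. These 3 calls held under every alternative tried, with log2 fold changes of 1.38 to 2.65 for Plat, 1.65 to 2.92 for Plau, and 1.92 to 3.57 for Plaur. Neutrophil and monocyte markers, whose cells carry urokinase and its receptor, were higher in the same mice. Control mouse 4 had the highest neutrophil (152), platelet (68.3), stellate cell (317), and erythroid (50532) marker sums of the controls. The part of any of these cells in the rises of Plat, Plau, and Plaur was not tested. Plg, plasminogen itself, measured 450, 502, and 625 FPKM against 615, 483, 615, 732, 711, and 912 FPKM, with overlap. Its log2 fold change of -0.35 (95% confidence interval -0.78 to 0.069, limma adjusted p = 0.156) turned to 0.13 under quantile normalization and to 0.013 with Saa1, Saa2, and Saa3 left out, and it was called lower without control mouse 4 (-0.45, adjusted p = 0.0450).

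The liver-made brakes on fibrinolysis were mixed. Cpb2, the carboxypeptidase that protects fibrin from plasmin once thrombomodulin-bound thrombin activates it, measured 326, 417, and 401 FPKM after anti-CD40 and 222, 170, 182, 274, 227, and 328 FPKM in control mice. It rose with a log2 fold change of 0.74 (standard error 0.20, limma adjusted p = 0.0132), although control mouse 12 slightly exceeded anti-CD40 mouse 2. It was no longer called without anti-CD40 mouse 5 (adjusted p = 0.0597) or mouse 9 (adjusted p = 0.0522), and the deposited position of Cpb2 spans other genes, among them the leukocyte gene Lcp1. Serpinf2, the main inhibitor of plasmin, measured 94.2, 125, and 130 FPKM against 143, 113, 147, 172, 182, and 246 FPKM and was not called (log2 fold change -0.50, 95% confidence interval -0.98 to -0.010, limma adjusted p = 0.0896). It was called lower without control mouse 4 (-0.60, adjusted p = 0.0254). Hrg, histidine-rich glycoprotein, ran from 91.1 to 130 FPKM against 97.7 to 186 FPKM (log2 fold change -0.42, limma adjusted p = 0.137) and was called lower without control mouse 12 (-0.53, adjusted p = 0.0432).

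**Figure D5:**
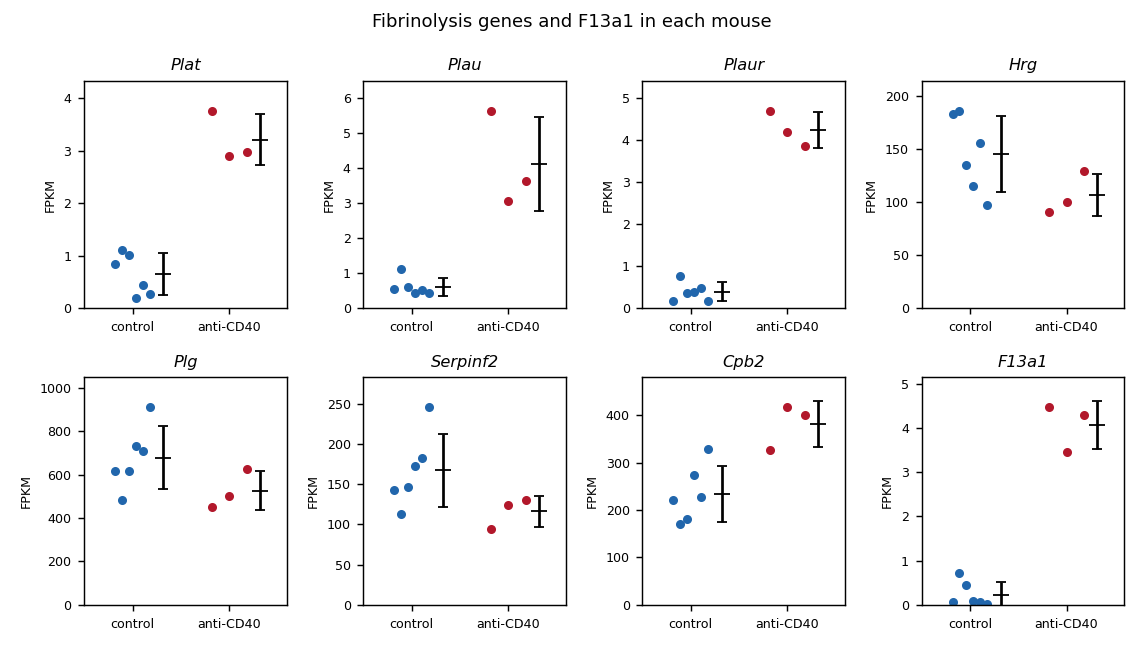
Each panel shows the FPKM of 1 gene from 0 upward, with 1 point per mouse (blue, 6 control mice; red, 3 anti-CD40 mice) and the mean ± SD of each group beside it, the F13a1 control bar ending at 0. Plat, Plau, Plaur, and F13a1 had every anti-CD40 mouse far above every control mouse, whereas Plg, Hrg, and Serpinf2 overlapped and Cpb2 overlapped through control mouse 12 at 328 FPKM.

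Another 28 genes that act on the same proteins are described beside the 33. Of the 25 tested, 14 rose, 3 fell, and 8 were not called, with a median log2 fold change of 0.89. The share that rose was above the 23.5% of all genes tested, and the share that fell was below 21.7%. This list too was chosen with earlier results known, so its counts are a description. Serpinb2, which encodes PAI-2, an inhibitor of urokinase, rose from 0.0901 ± 0.0728 (SD, n = 6) to 0.752 ± 0.0639 FPKM (SD, n = 3), with 25 to 31 reads a mouse after anti-CD40 against 0 to 6. This inhibitor of urokinase therefore rose in the livers in which urokinase rose. Procr, the endothelial receptor that presents protein C to thrombomodulin, measured 49.3, 39.7, and 32.5 FPKM against 3.71, 5.63, 5.46, 4.97, 3.18, and 2.99 FPKM (log2 fold change 3.22, standard error 0.23, limma adjusted p = 3.52e-06). Together with Thbd, both receptors of the protein C pathway were higher while Proc was lower.

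The other regulatory genes of that list that rose most were of several kinds. A2m, a broad protease inhibitor, rose from 3 reads in all 6 control mice together to 99 to 213 reads in each anti-CD40 mouse. Serpina5, the protein C inhibitor, rose from 6 reads in the 6 control mice together to 30 to 47 reads a mouse (limma adjusted p = 6.91e-06). Anxa2, which binds plasminogen and tissue plasminogen activator at the cell surface, went from 27.5 ± 5.10 FPKM (SD, n = 6) to 130 ± 7.34 FPKM (SD, n = 3), and the plasminogen receptor Plgrkt from 8.89 ± 3.66 to 25.1 ± 3.08 FPKM. The partner of Anxa2, S100a10, fell slightly (log2 fold change -0.39, limma adjusted p = 0.0449) and turned to 0.088 under quantile normalization. Fgl1, a hepatocyte protein related to fibrinogen, rose from 2424 ± 799 FPKM (SD, n = 6) to 10032 ± 764 FPKM (SD, n = 3), 4.14 times the control mean (limma adjusted p = 5.22e-05). Thbs1, thrombospondin, had a log2 fold change of 1.90 and F2rl3, the thrombin receptor PAR4, of 1.76 (limma adjusted p = 2.65e-04 and 7.28e-04), the latter from 9 to 15 reads a mouse against 0 to 4. Of the 4 protease-activated receptors 3 could be tested, and all 3 were called higher. Among them, F2r measured 29.0, 29.6, and 38.1 FPKM after anti-CD40 and 10.7 to 13.9 FPKM in control mice, without overlap (log2 fold change 1.33, limma adjusted p = 1.85e-05). However, F2rl2, with 4 to 13 reads a mouse against 1 to 4, had overlapping groups (exact permutation p = 0.0714). Its deposited position is shared with Iqgap2. Its call was lost without anti-CD40 mouse 5 or 9 or control mouse 3, 8, or 11 (adjusted p = 0.0511 to 0.146).

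The genes that carry out the vitamin K cycle and the secretion of clotting factors did not rise. Vkorc1, the epoxide reductase that warfarin blocks, measured 164, 167, and 181 FPKM after anti-CD40 and 410, 348, 451, 442, 536, and 533 FPKM in control mice (log2 fold change -1.39, standard error 0.15, limma adjusted p = 3.33e-05). Ggcx, the carboxylase that the cycle serves and that F2, F7, F9, F10, Proc, Pros1, and Proz proteins depend on, was not called (log2 fold change -0.34, limma adjusted p = 0.198), and neither were Vkorc1l1, Lman1, and Mcfd2. Mcfd2 was called lower without control mouse 8 (adjusted p = 0.0418) or 12 (adjusted p = 0.0332). The 3 genes of the list that fell, Vkorc1, Tfpi2 (log2 fold change -0.56, limma adjusted p = 0.0269), and S100a10, are named because they are few. Vkorc1 alone of them was called when anti-CD40 mouse 2, 5, or 9 was left out (adjusted p = 0.0519 to 0.119 for Tfpi2 and 0.0754 to 0.128 for S100a10), and S100a10 also lost its call without control mouse 3, 7, or 8 (adjusted p = 0.0750 to 0.0794). Neither kinin receptor could be tested, since Bdkrb2 was at the floor of 0.01 FPKM in every mouse and Bdkrb1 in 8 of 9.

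Of 9 transcription factors that set hepatocyte expression, 2 were lower and 7 were not called, a share near the 21.7% of all genes called lower. Cebpa measured 35.6, 40.6, and 40.2 FPKM after anti-CD40 and 77.3 to 178 FPKM in control mice (log2 fold change -1.49, standard error 0.23, limma adjusted p = 4.89e-04). Foxa1 had a log2 fold change of -0.50 with overlapping groups (limma adjusted p = 0.0493, exact permutation p = 0.0714). Hnf4a, on which many clotting factor promoters depend, had a log2 fold change of -0.44 with overlapping groups (limma adjusted p = 0.139), and Cebpb one of 0.53 (limma adjusted p = 0.270).

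The control mice varied among themselves in a shared way. Of the 32 genes tested, control mouse 12 was the highest of the 6 control mice in 20, and control mouse 4 was the lowest in 18 and the highest in 7. The 7 were F3, F13a1, F13b, Plat, Plau, Plaur, and Hrg. With anti-CD40 mouse 5 and control mouse 4 both left out, a choice made after the data were seen, 8 genes were called higher and 14 lower. With each of the 9 mice left out in turn, 9 to 11 were called higher and 9 to 16 lower, the 16 without control mouse 4.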

How the data were processed

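The authors made 3′ mRNA libraries (QuantSeq) from liver RNA, aligned the reads to mm10 with STAR, and ran Cufflinks and Cuffdiff. They deposited 1 table of FPKM values, with 24341 gene names and 9 mice, a floor of 0.01, and failed estimates marked. The annotation and any filter behind the table are not given in the sources used here. Mice were grouped by the sample labels, and each sample is 1 mouse of a single experiment, so p-values measure the spread between these mice. Gene positions are those of the table, counted from 1.

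The members and lists were chosen with earlier results of these data known. The rule for named genes took all 33 members, with values in every mouse for those called with a log2 fold change of at least 1 in size or discussed in their role, and at most 10 of the other coagulation genes called with such a change, here those with the largest. F2r was named outside this rule, beside the other protease-activated receptors. The 15 genes with a failed estimate were left out, and the 13807 with a mean FPKM of at least 0.1 were tested as log2(FPKM + 0.1), which understates changes of low genes, with limma 3.58.1 in R 4.3.3 (lmFit and trended eBayes, with no covariate beside treatment, 2-sided, Benjamini-Hochberg adjustment, threshold 0.05). The study's Cuffdiff test needs alignments and was not run. Single genes had an exact permutation test. On simulated data, with 200 of 13755 genes changed, limma recovered 43.7% of 87 genes changed by 1 and 91.2% of 113 changed by 2 on the log2 scale, with 10 false calls. In the data limma called 3240 genes higher and 2990 lower, many more than were changed in the simulation. The adjustment thus acted under another setting, and the recovered shares do not measure recovery in the data. The lists of markers, of the other coagulation genes, and of transcription factors were described by counts, and 2 genes once on them are not reported here.

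The table gives no read totals, so depth is known only in relative terms. Steps between low FPKM values gave whole reads in every mouse for 93% of 1596 low genes (within 3%), and for at most 8.33% when the steps were assigned to wrong mice in 20 orders. The genes whose reads are given above reached higher FPKM than these low genes, and a wider search was used for them, so this check did not cover them. The reads given are the smallest whole numbers possible. Alternatives changed the pseudocount (1 or 0.01), the filter (none, or a mean of 1 FPKM), the scaling (quantile normalization, median of ratios, or Saa1-3 left out and each mouse rescaled), the variance model (eBayes untrended or robust), the threshold (0.01), and the mice (each left out in turn). Chosen after seeing the data was leaving out anti-CD40 mouse 5 and control mouse 4 together. Promoter windows came from a RefSeq table for GRCm38.p6. All 33 members matched it on the same chromosome, 14 with the same start, and 26 had a window. Python 3.11.15 with pandas 2.3.3, numpy 2.4.6, and matplotlib 3.10.9 did the remaining steps.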

Additional observations from a re-analysis of the deposited data

Results flagged for a closer look

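Among the 57 coagulation genes tested, 4 had a control mouse far from the other 5 by Dixon's ratio, the gap to the nearest mouse over the range of the group, with a 95% critical value of 0.625, and chance gives about 2.85 such genes. Pros1 was highest in control mouse 12, at 60.8 FPKM against 46.6 FPKM in the next (ratio 0.763), a value still below all 3 anti-CD40 mice. Serping1, the inhibitor of C1 and kallikrein, was highest in the same mouse, at 480 against 340 FPKM (ratio 0.661). Plau was highest in control mouse 4, at 1.11 against 0.609 FPKM (ratio 0.661). F2rl3 was highest in control mouse 4 as well, at 0.124 against 0.0310 FPKM (ratio 0.755), which are 4 reads and 1 read.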

How the results depend on the processing

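The directions of the 23 called coagulation genes held under all 20 alternatives in which they could be tested, and 12 of the 23 kept their call throughout: F7, F13a1, Fgg, Vwf, Klkb1, Proc, Pros1, Serpind1, Thbd, Plat, Plau, and Plaur (Vwf could not be tested with a mean FPKM of at least 1). The count of lower genes fell from 12 to 6 under quantile normalization, and the cause was not tested. Of the other coagulation genes, 8 in place of 14 were higher with a mean FPKM of at least 1, where fewer genes are tested. In place of 3, 1 was lower with no filter, quantile normalization, Saa1-3 left out, or an adjusted p under 0.01, and 1 to 4 with each mouse left out. Log2 fold changes of uncalled genes changed sign under quantile normalization to 0.32 (Kng2, then called), 0.13 (Plg), -0.11 (Serpine2), 0.23 (Lman1), 0.041 (Mcfd2), and 0.21 (Vtn), as did that of S100a10, called lower, to 0.088. With Saa1-3 left out and rescaled they became 0.11 (F8), 0.22 (Kng2), 0.013 (Plg), 0.023 (Ggcx), 0.26 (Vkorc1l1), 0.21 (Lman1), 0.080 (Mcfd2), and 0.14 (Vtn). Serpine2 ran from -0.065 to 0.19 with each mouse left out, and Vkorc1l1 was 0.0071 with anti-CD40 mouse 5 and control mouse 4 both left out. No paired analysis was possible because the 2 groups share no mouse number. Depth limits the low genes, such as Vwf with 39 reads in the 3 anti-CD40 mice and F2rl3 with 5 in the 6 control mice, and with 3 mice against 6 the exact test cannot go below 0.0238.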
